A study of Mus musculus with 2 samples.

Results

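The cells described here are E17 skin epithelial cells that carried RNA of *Shh*, the secreted ligand made at the growing tip of the hair follicle, but none of the placode genes *Dkk4* and *Fgf20*. They were chosen by their UMI (unique molecular identifier) counts in 2 single-cell libraries. A barcode had to hold at least 1800 genes, at least 1 *Shh* UMI, 0 UMIs of *Dkk4* and *Fgf20*, fewer than 2 UMIs of *Sox9*, and fewer than 30 UMIs of *Krt1* plus *Krt10* per 10000. The rule found 259 of 8024 kept cells, which are called gated Shh+ cells. They numbered 122 of 3577 cells in the cKO library and 137 of 4447 cells in the Ctrl library.

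The study asked what loss of *Mettl3*, the catalytic subunit of the m6A RNA methyltransferase, does to the developing skin epithelium. Both libraries came from the back skin of C57BL/6 embryos and were made with the 10x Genomics 3′ method from YFP+ cells that had been sorted as viable, positive for integrins α6 and β1 and negative for lineage markers of endothelial, immune, melanocytic and dermal cells. The cKO library had the genotype Mettl3 fl/fl, Rosa16-YFP fl/+ and K14Cre. The Ctrl library had Mettl3 fl/+ with the same Rosa16-YFP fl/+ and K14Cre alleles, so that both carried the Cre, which the keratin 14 promoter drives in the skin epithelium, and the control could also lose 1 of its *Mettl3* copies in these cells. The number of embryos pooled in each library is not given in the sources used here. With 1 library per condition no difference between cKO and Ctrl was tested, and the 95% intervals below cover counting error only, not the spread between embryos or between cells.

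The hair follicle starts as a placode in which WNT signals from the surface and from the dermis act through β-catenin and LEF1, and EDAR acts through NF-κB. Placode cells then switch on SHH, which acts on neighbouring epithelium and on the dermal condensate below through the receptor PTCH1 and the GLI factors, and the bud grows down into the dermis. *Shh* stays on at the leading tip, where the later matrix forms, while SOX9+ cells above it become the outer root sheath and the first stem cells.

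The libraries held 49755010 UMIs (cKO) and 59664869 UMIs (Ctrl). Gated Shh+ cells gave 1191874 UMIs in cKO and 1378989 UMIs in Ctrl, with median depths of 8612.5 and 8693 UMIs, 2633 and 2594 genes per cell and a median mitochondrial share of 5.08% and 4.51%. No barcode of a gated Shh+ cell occurred among the kept cells of the other library. The libraries also differed in sex. *Xist*, the RNA of the inactive X chromosome, was found in 0 of 122 cKO and 137 of 137 Ctrl gated cells, and a Y-linked gene in 84 of 122 and 0 of 137, so sex and genotype cannot be told apart. *Mettl3* itself had 4 UMIs in the gated cKO cells and 25 in the gated Ctrl cells, that is 3.36 and 18.1 UMIs per 1000000 UMIs of the summed cells (CPM). These 3′ tags do not report on the deleted exon.

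The gated cells made up 3.41% of the kept cells in cKO (exact Clopper-Pearson interval 2.84 to 4.06%) and 3.08% in Ctrl (2.59 to 3.63%). The intervals overlapped, and a difference in this share was not detectable at this depth. Of all *Shh*-positive cells, 315 in cKO and 293 in Ctrl, the exclusion of *Dkk4* and *Fgf20* removed the largest number, 160 cKO cells (50.8%) and 133 Ctrl cells (45.4%). The *Sox9* limit then removed 26 and 23 cells, and the *Krt1* plus *Krt10* limit removed 7 and 0.

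Many cells stood near the lower limit on *Shh*. In cKO, 55 cells had 1 *Shh* UMI, 22 had 2, 13 had 3 and 32 had 4 or more, against 70, 24, 10 and 33 cells in Ctrl. For *Sox9*, 103 and 117 gated cells had 0 UMIs and 19 and 20 had 1, while 8 and 7 otherwise fitting cells lay just outside with 2. The highest *Krt1* plus *Krt10* level inside was 27.7 UMIs per 10000 in each library, and the lowest outside was 32.0, in cKO. The fewest genes in a gated cell were 1810 in each library, and a further 59 and 40 cells with at least 1000 but fewer than 1800 genes met the rest of the rule.

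The label given to these cells, follicle tip cells past the placode stage, was checked with 3 genes that the rule did not use. These were *Lhx2*, a LIM homeobox factor of the follicle epithelium, *Wif1*, a secreted inhibitor that binds WNT ligands, and *Prss35*, a member of the serine protease family. At least 1 of the 3 was found in 72 of 122 cKO cells (59.0%) and 86 of 137 Ctrl cells (62.8%), and all 3 in 8 and 20 cells. In *Shh*-positive cells that also held *Dkk4* or *Fgf20*, the share with at least 1 of them was 36.9% in cKO and 40.5% in Ctrl. A single such UMI does not set a gated cell apart from these, and 50 cKO cells (41.0%) and 51 Ctrl cells (37.2%) had no UMI of any of the 3, so the label was not borne out cell by cell and the cells are named by the rule.

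*Lhx2* (chromosome 2, 38339281 to 38369733) reached 307 CPM in gated cKO cells (exact Poisson interval 276 to 340) and 323 CPM in gated Ctrl cells (294 to 355). This was 7.03 and 8.03 times its level in the rest of the kept cells, 43.7 and 40.3 CPM. *Wif1* (chromosome 10, 121033960 to 121100650) had 56 UMIs in cKO and 124 in Ctrl, or 47.0 CPM (35.5 to 61.0) and 89.9 CPM (74.8 to 107), 6.55 and 8.78 times the rest. *Prss35* (chromosome 9, 86743649 to 86758443) had only 22 and 55 UMIs, 18.5 CPM (11.6 to 27.9) and 39.9 CPM (30.05 to 51.9), and set the cells apart from the rest by 3.44 times in Ctrl (2.56 to 4.56) but by 1.41 times in cKO, with an interval of 0.872 to 2.16 that includes 1. Positions are those of GENCODE vM21 on GRCm38.

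**Figure D1:**
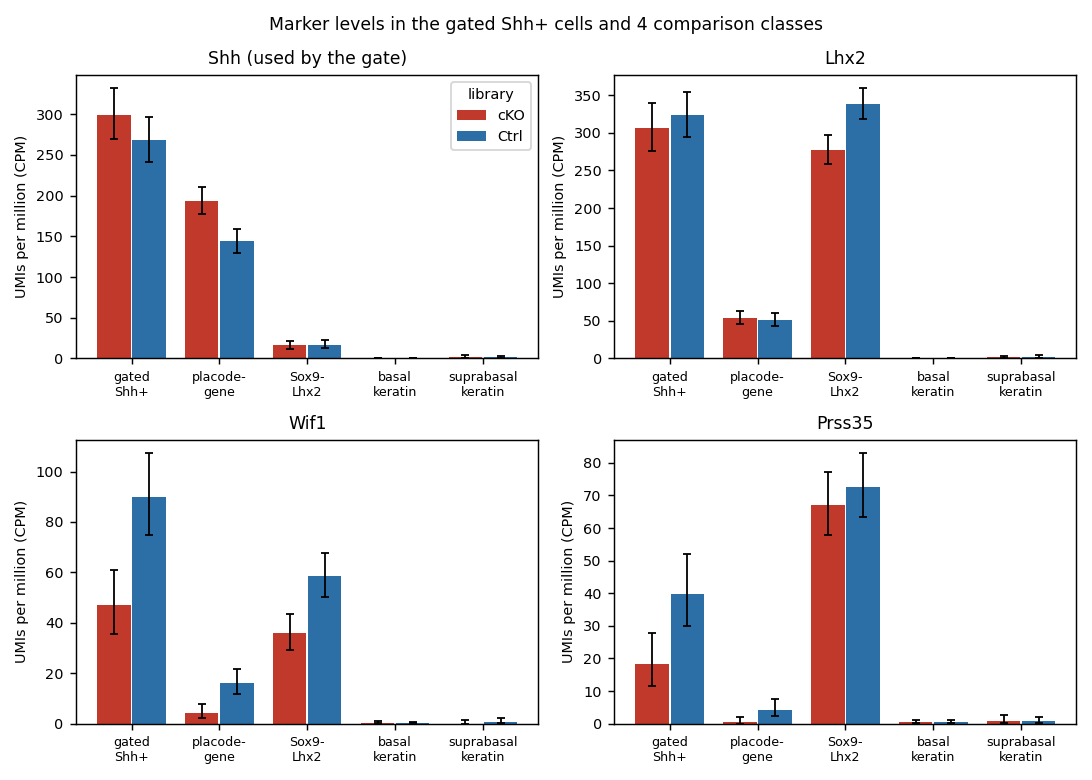
Levels of *Shh*, *Lhx2*, *Wif1* and *Prss35* in CPM (UMIs per 1000000 summed UMIs) in gated Shh+ cells and 4 comparison classes, with cKO in red and Ctrl in blue and bars showing exact Poisson 95% intervals. *Lhx2* stood at 307 and 323 CPM in gated Shh+ cells and at 277 and 338 CPM in Sox9-Lhx2 cells, and *Prss35* was higher in Sox9-Lhx2 cells (67.1 and 72.7 CPM) than in gated Shh+ cells; *Shh* was used by the rule, and the absence of *Lhx2* from basal keratin cells and its presence in Sox9-Lhx2 cells were fixed by the definition of those classes.

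The plot of marker levels sets the gated cells beside 4 classes cut from the same libraries by UMI limits. Placode-gene cells (298 cKO and 272 Ctrl) held *Dkk4* or *Fgf20*, Sox9-Lhx2 cells (280 and 287) held at least 2 *Sox9* UMIs and *Lhx2*, basal keratin cells (1200 and 2230) held at least 50 *Krt14* UMIs per 10000 and none of the follicle genes of the rule, and suprabasal keratin cells (230 and 333) held at least 100 *Krt1* plus *Krt10* UMIs per 10000. *Wif1* was low in placode-gene cells, 4.43 CPM in cKO and 16.1 CPM in Ctrl, and stood at 36.0 and 58.5 CPM in Sox9-Lhx2 cells. *Prss35* showed the same order, with 0.370 and 4.31 CPM in placode-gene cells and 67.1 and 72.7 CPM in Sox9-Lhx2 cells. Both genes, like *Lhx2*, were thus higher in gated cells than in placode-gene cells of the same library, and *Prss35* was lower than in Sox9-Lhx2 cells.

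Shares of cells with a UMI were set against a class that should lack these genes. After each cell was thinned to 5500 UMIs, which left 112 cKO and 130 Ctrl gated cells and dropped 10 and 7, *Lhx2* was found in 51.8% and 53.8% of cells (55.7% and 56.2% before thinning). *Wif1* was found in 12.5% of cKO cells (interval 7.01 to 20.1%) and 25.4% of Ctrl cells (18.2 to 33.8%), against 21.3% and 30.7% before thinning, and *Prss35* in 8.04% and 15.4%, against 11.5% and 23.4%. In thinned suprabasal keratin cells *Lhx2* was found in 1.35% and 0.305%, *Wif1* in 0 of 223 cells (which allows up to 1.64%) and 0.305%, and *Prss35* in 0 of 223 cells and 0.610%, at median depths of 10831 and 11348 UMIs before thinning. All 3 shares in the gated cells lay above these.

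*Shh* itself needed the same comparison, because 1 UMI was enough to enter the gate. Unthinned suprabasal keratin cells held *Shh* in 2.17% of cKO cells (5 of 230, interval 0.710 to 5.0%) and 0.901% of Ctrl cells (3 of 333, 0.186 to 2.61%), and after thinning in 0.448% and 0.610%. Among kept cells that met every other limit of the rule and had at least 50 *Krt14* UMIs per 10000, *Shh* was found in 1.38% of 1379 cKO cells (0.832 to 2.14%) and 1.78% of 2470 Ctrl cells (1.30 to 2.38%), at median depths of 9128 and 9024 UMIs. These intervals overlapped those of the suprabasal keratin cells. Among cells that met the other limits with less *Krt14*, *Shh* was found in 10.4% of 991 cKO cells (8.56 to 12.5%) and 13.3% of 697 Ctrl cells (10.9 to 16.1%), well above both. The gate took 19 of its 122 cKO cells and 44 of its 137 Ctrl cells from the *Krt14*-high population, and 17 and 33 of these had a single *Shh* UMI.

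A UMI of *Lhx2*, *Wif1* or *Prss35* split both populations further. *Krt14*-high cells with none of the 3 held *Shh* in 18 of 1350 cKO cells (1.33%) and 35 of 2400 Ctrl cells (1.46%), but those with at least 1 held it in 1 of 29 cKO cells and in 9 of 70 Ctrl cells (12.9%, 6.05 to 23.0%). Cells with less *Krt14* and none of the 3 held *Shh* in 32 of 717 cKO cells (4.46%, 3.07 to 6.24%) and 16 of 429 Ctrl cells (3.73%, 2.15 to 5.99%). These intervals overlapped those of the unthinned suprabasal keratin cells. Their median depths were only 7150 and 7205 UMIs, against 10831 and 11348 UMIs in the suprabasal keratin cells. The overlap therefore does not place these cells at the suprabasal level. With less *Krt14* and at least 1 of the 3 the shares were 25.9% in cKO (20.8 to 31.5%) and 28.7% in Ctrl (23.4 to 34.6%). The share with *Shh* was higher where another marker was present, at either level of *Krt14* in Ctrl and at the lower level in cKO, where 29 *Krt14*-high cells were too few to tell (interval 0.0873 to 17.8%).

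The gated cells differed among themselves with their number of *Shh* UMIs, and genes differed in whether they followed it. Cells with 1 *Shh* UMI held at least 1 of *Lhx2*, *Wif1* and *Prss35* in 36.4% of cases in cKO and 42.9% in Ctrl, cells with 2 in 59.1% and 66.7%, and cells with 3 or more in 39 of 45 cases (86.7%) in cKO and 40 of 43 in Ctrl. The median depth of the 3 groups differed little, between 8329 and 8807 UMIs in cKO and between 8129.5 and 8859 in Ctrl. Since *Shh* defines the groups and the gate, these values describe the members and were not tested.

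*Lhx2* was higher with more *Shh*, at 147, 419 and 428 CPM in cKO cells with 1, 2 and 3 or more *Shh* UMIs and at 175, 265 and 585 CPM in Ctrl cells. *Trps1*, a GATA-type repressor of the follicle, went the same way, at 43.6, 89.1 and 117 CPM in cKO and 59.8, 125 and 115 CPM in Ctrl. *Bmp2*, a BMP ligand of the follicle epithelium, stood at 45.6, 80.2 and 132 CPM in cKO and at 68.5, 72.4 and 137 CPM in Ctrl. *Gli1*, a transcription factor that is also a target of SHH signalling, stood at 23.8, 44.6 and 56.2 CPM in cKO and at 29.2, 28.2 and 56.2 CPM in Ctrl, on 12, 10 and 26 UMIs and on 20, 7 and 25 UMIs. Other follicle genes did not follow it. *Lef1*, a partner of β-catenin, stood at 137, 120.3 and 143 CPM in cKO and 182, 189 and 164 CPM in Ctrl, and *Ptch1*, the SHH receptor, at 147, 129 and 182 CPM in cKO and 141, 173 and 153 CPM in Ctrl.

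Some genes of the basal layer were lower with more *Shh*. *Krt14*, the main type I keratin of basal cells, stood at 4274, 1551 and 2021 CPM in cKO and at 5989, 3870 and 2674 CPM in Ctrl over the 3 groups. *Col17a1*, a hemidesmosomal collagen, stood at 133, 40.1 and 30.3 CPM in cKO and 133, 92.5 and 42.7 CPM in Ctrl. Genes that are not particular to the basal layer were lower too. *Pthlh*, which encodes parathyroid hormone-related protein and is on the marker list of *Sox9*-positive follicle cells, stood at 53.5, 13.4 and 4.32 CPM in cKO and 54.0, 32.2 and 9.0 CPM in Ctrl. *Sostdc1*, a secreted inhibitor of BMP and WNT signals, stood at 254, 44.6 and 38.9 CPM in cKO and 214, 80.5 and 40.5 CPM in Ctrl. In both libraries the cells with the most *Shh* had the least *Col17a1*, *Pthlh* and *Sostdc1* and less *Krt14* than those with 1 UMI. *Sostdc1* was found in 85.4% and 86.4% of thinned Sox9-Lhx2 cells of cKO and Ctrl and in 50.1% and 55.6% of thinned basal keratin cells.

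**Figure D2:**
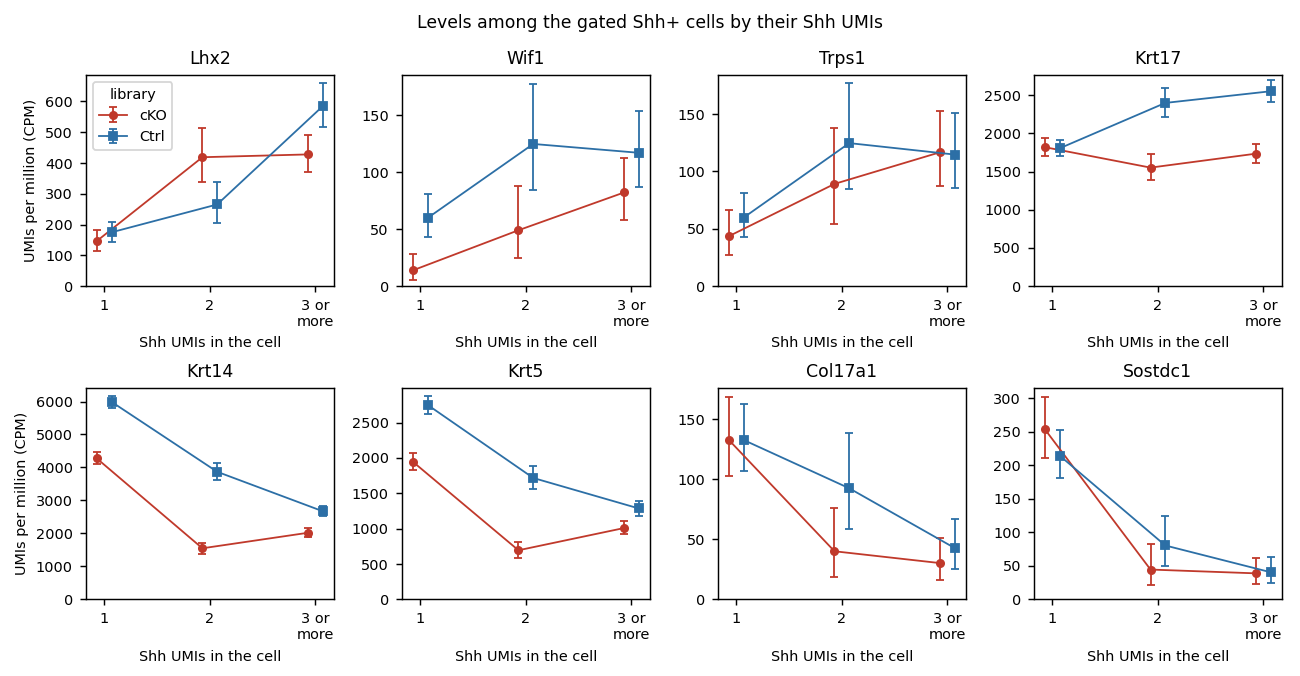
Levels of 8 genes in CPM (UMIs per 1000000 summed UMIs) among gated Shh+ cells with 1, 2 and 3 or more *Shh* UMIs, with cKO in red and Ctrl in blue and exact Poisson 95% intervals. *Lhx2* was highest and *Col17a1* and *Sostdc1* lowest in the cells with 3 or more, and *Krt17* showed no order in cKO (1818, 1551 and 1734 CPM) but higher with more *Shh* in Ctrl (1804, 2397 and 2550.4 CPM).

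At the low end stood 35 cKO cells (28.7%) and 40 Ctrl cells (29.2%) with 1 *Shh* UMI and none of the 3 marker genes. Their *Krt14* level was 5493 CPM in cKO and 8146 CPM in Ctrl, close to the 5425 and 7876 CPM of the rest of the kept cells. *Trps1* was at 8.80 and 12.3 CPM, *Gli1* at 11.7 and 17.2 CPM and *Sostdc1* at 314 and 284 CPM. At the other end, cells with 2 or 3 of the marker genes (28 in cKO and 45 in Ctrl) had 1486 and 2167 CPM of *Krt14* and 142 and 151 CPM of *Trps1*. Single cells spread widely as well, since *Krt14* ranged from 2.73 through a median of 18.5 to 157 UMIs per 10000 in cKO and from 0 through 28.3 to 203 in Ctrl.

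Each gated Shh+ cell sum was next set against the rest of its own library, to find what else these cells expressed. Of 27998 genes in the files, 3318 had at least 100 UMIs over the gated cells of both libraries and are called measured. Of these, 159 (4.79%) were at least 1.5 times higher than in the rest in both libraries and 65 (1.96%) at least 1.5 times lower. Because the gate chose the cells, these counts describe them. The minimum of 100 UMIs was asked of the gated cells alone, so a gene that was low in them could drop out. The higher and lower counts, here and against each class below, can therefore not be set against each other. Against the basal keratin cells alone, 267 (8.05%) were higher and 77 (2.32%) lower, among them *Trps1* at 80.5 and 89.2 CPM in gated cKO and Ctrl cells against 1.37 and 2.05 CPM in basal keratin cells.

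The genes that stood highest over the rest, by the smaller of the ratios in the 2 libraries, were led by *Lhx2*. They included *Mgp*, matrix Gla protein, at 156 CPM in gated cKO cells against 27.0 CPM in the rest and at 120.4 CPM in gated Ctrl cells against 18.1 CPM in the rest, and *Figf*, which encodes the growth factor VEGF-D, at 7.01 and 5.73 times the rest. *Nrp2*, a neuropilin receptor for class 3 semaphorins and VEGF proteins, was 4.72 and 6.34 times higher, and *Fn1*, fibronectin, 4.50 and 7.91 times. *Dusp6*, a phosphatase that feeds back on ERK, was 4.03 and 3.93 times higher, and the homeobox gene *Cux1* 4.66 and 3.73 times. *Fam13a*, *Golga7b*, *Plgrkt*, *Trim47*, *Casz1* and *Rgs2* were also in this set, as was *Edar*, described below. Genes far below the rest were those of differentiating epidermis, such as *Krtdap* (0.297 and 0.305 times) and *Anxa1* (0.292 and 0.321 times), the stefin genes *Stfa1*, *Stfa3* and *BC100530*, between which reads of near-identical copies could be split, and *Sostdc1* (0.314 and 0.352 times) and *Gas1* (0.361 and 0.338 times).

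Set against the placode-gene cells, 122 measured genes (3.68%) were at least 1.5 times higher in gated Shh+ cells in both libraries and 26 (0.784%) lower. Since many placode-gene cells lacked *Shh*, this contrast mixes the presence of *Shh* with the absence of *Dkk4* and *Fgf20*. *Ccnd1*, cyclin D1, stood at 184 and 197 CPM in gated cKO and Ctrl cells and at 33.6 and 40.9 CPM in placode-gene cells. *Mgp*, *Figf*, *Nrp2*, *Wif1*, *Trim47* and *Hs3st6*, a heparan sulfate sulfotransferase, were also among the 8 highest. *Wnt16*, a WNT ligand, was lower, at 41.1 and 44.2 CPM against 107 and 122 CPM, as were *Slc1a3*, a glutamate transporter (57.1 and 81.2 CPM against 215 and 205 CPM), and *Phlda1* (164 and 136 CPM against 398 and 409 CPM).

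Set against the Sox9-Lhx2 cells, 103 measured genes (3.1%) were higher and 64 (1.93%) lower. *Bmp2* stood at 85.6 and 91.4 CPM in gated cKO and Ctrl cells and at 7.61 and 4.93 CPM in Sox9-Lhx2 cells, and *Wnt3*, a WNT ligand, at 73.8 and 58.7 CPM against 15.2 and 8.22 CPM. *Barx2*, a homeobox gene, was almost confined to the other class, with 17.6 and 18.9 CPM in gated cells against 391 and 444 CPM. *Tbx1*, a T-box factor, had 9 and 7 UMIs in gated cells, or 7.55 and 5.08 CPM, against 112 and 119 CPM, and *Lmcd1* had 0 UMIs in either set of gated cells. *Bmp2* and *Wnt3* were also present in placode-gene cells (188 and 190.1 CPM, and 105 and 101 CPM), and *Ccnd1* and *Nrp2* in Sox9-Lhx2 cells (209 and 224 CPM, and 157 and 167 CPM).

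**Figure D3:**
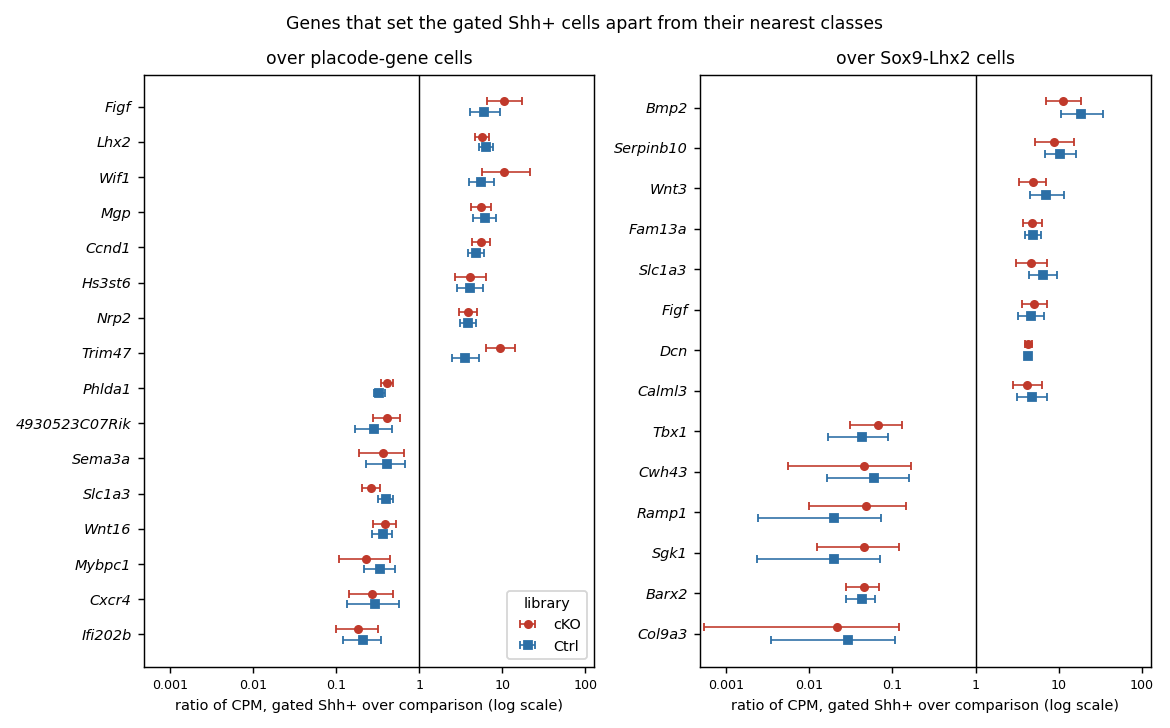
Ratio of CPM in gated Shh+ cells over placode-gene cells (left) and over Sox9-Lhx2 cells (right), on a log axis, for the genes with the 8 highest and 8 lowest ratios by the weaker of the 2 libraries; circles are cKO, squares are Ctrl and bars are exact conditional 95% intervals. *Lmcd1* and *Sema3e* are left out of the right panel because gated cells of a library had 0 UMIs, and *Bmp2* led that panel at 85.6 and 91.4 CPM in gated cells against 7.61 and 4.93 CPM. Of the placode-gene cells in the left panel, 52.7% in cKO and 46.3% in Ctrl held *Shh*.

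Genes of other cell types were looked for by lists. Endothelial markers reached 4 and 6 UMIs over all gated cKO and Ctrl cells, all from *Pecam1*, while *Cdh5* and *Kdr* were at 0. Of the immune list, *Ptprc* and *Tyrobp* were at 0 and the whole sum of 39.4 and 63.8 CPM (rest 6.35 and 6.99 CPM) came from *Cd74*, the invariant chain. Of the 6 Merkel cell markers *Krt20* and *Isl1* were at 0 and *Atoh1* had 1 UMI in each library. Of the 7 melanocyte and neural crest markers *Tyrp1* and *Mlana* were at 0 and *Dct* had 3 and 5 UMIs. The 7 fibroblast markers summed to 1239 and 1562 CPM (rest 627 and 715 CPM), of which *Dcn*, decorin, gave 1211 and 1534 CPM, while *Pdgfra* was at 0 and *Col1a1* had 0 and 3 UMIs. No gated cell held 2 or more markers of the melanocyte, Merkel, immune or endothelial lists, and 10 and 12 cells held 2 or more of the fibroblast list. Suprabasal markers summed to 1094 and 1153 CPM, against 5996 and 7220 CPM in the rest. That list holds *Krt1* and *Krt10*, which the rule limited, so a low sum was partly fixed by the gate. *Sbsn*, which the rule did not use, stood at 31.9 and 29.0 CPM, against 102 and 108 CPM in the rest. The rest keeps the cells above the keratin limit, so a low *Sbsn* can follow from that limit too. Classes under the same limit had like suprabasal sums, 981 and 1230 CPM in cKO and Ctrl placode-gene cells and 920 and 976 CPM in Sox9-Lhx2 cells.

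The question set by the design was how the gated cells differ between cKO and Ctrl. Of the 3318 measured genes, 165 (4.97%) were at least 1.5 times higher in cKO and 108 (3.25%) at least 1.5 times lower, 273 (8.23%) in all, with a median log2 ratio of -0.02. In the rest of the kept cells the same rule gave 120 higher (3.62%) and 24 lower (0.723%) among the same genes, at far deeper sums and with a median of -0.01. Of the 165 genes higher in gated cKO cells, 76 were also past 1.5-fold in the rest and 158 had a rest ratio above 1. Of the 108 lower genes, 15 were past 1.5-fold in the rest and 93 had a rest ratio below 1, so the direction was mostly shared with the other cells of the library.

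The genes that were highest in cKO were shared in this way. *Rpp25l*, a paralogue of a ribonuclease P subunit, stood at 191 CPM in cKO (interval 167 to 218) and 58.0 CPM in Ctrl (46.0 to 72.2), a ratio of 3.30 against 3.35 in the rest. *Nxt1*, a cofactor of mRNA export, had a ratio of 2.89 (rest 2.79), and genes of the mitochondrial ribosome followed with *Mrpl43* at 2.44 (rest 2.60), *Mrpl46* at 2.43 (rest 2.39) and *Mrps34* at 1.96 (rest 2.21). *Mrto4* (2.19, rest 1.57) and *Rrs1* (2.05, rest 1.79) act in ribosome assembly, and *Eif1a* (1.89, rest 1.76) is a translation initiation factor. *Tpgs1*, *Zfp292* and *Scand1* had ratios of 2.098, 1.98 and 1.90. *Calm4*, a calmodulin-like gene of the epidermis, also reached 2.28, but 1 cKO cell held 100 of its 195 UMIs and 1 Ctrl cell 23 of 99, and without these cells the ratio was 1.45.

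**Figure D4:**
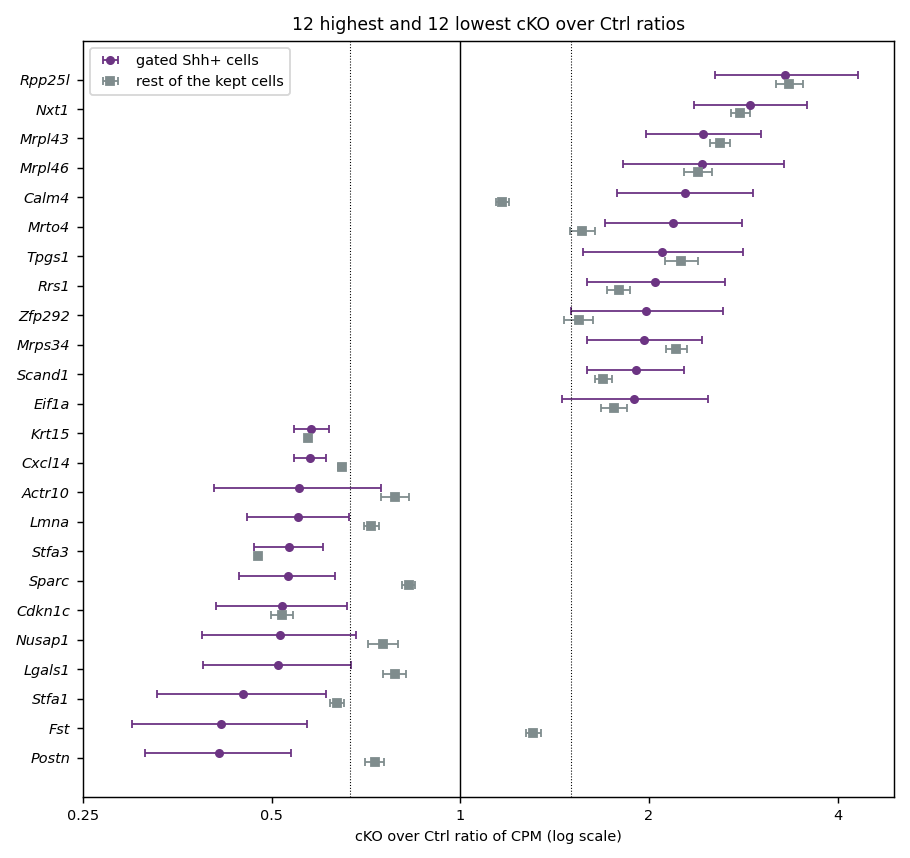
The 12 highest and 12 lowest cKO over Ctrl ratios of CPM in gated Shh+ cells (purple circles, above) with the same ratio in the rest of the kept cells (grey squares, below), on a log axis, among genes with at least 200 UMIs; bars are exact conditional 95% intervals and dotted lines mark 1.5-fold. *Rpp25l* was at 3.30 in gated cells and 3.35 in the rest, while *Fst* was at 0.416 in gated cells and 1.31 in the rest.

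Of the genes that were lowest in cKO, some differed from the rest and others, such as *Cdkn1c* and *Krt15*, had like ratios there. *Fst*, follistatin, a secreted inhibitor of activin and BMP ligands (chromosome 13, 114452290 to 114458951), had 55 UMIs in 29 of the 122 cKO cells and 153 UMIs in 45 of the 137 Ctrl cells. This gave 46.1 CPM (34.8 to 60.1) in cKO and 111 CPM (94.1 to 129.99) in Ctrl, a ratio of 0.416 (0.300 to 0.569). In the rest of the kept cells *Fst* was at 328 CPM in cKO and 251 CPM in Ctrl, a ratio of 1.31 (1.27 to 1.34), and in Sox9-Lhx2 cells at 437 and 385 CPM (1.13, 1.05 to 1.23). In placode-gene cells it was at 86.8 and 105 CPM, a ratio of 0.826 (0.693 to 0.984), so these cells shared the direction of the gated cells. The difference from the rest was not tested. *Postn*, periostin, had a ratio of 0.412 (0.314 to 0.537), with 64.6 and 157 CPM, but in the gated cells with less than 50 *Krt14* UMIs per 10000 the ratio was 0.809 (0.555 to 1.18), where *Fst* was still at 0.506 (0.310 to 0.810).

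Among the other low genes, *Cxcl14*, a chemokine of skin epithelium, stood at 1426 and 2474 CPM (0.577, rest 0.647). *Cdkn1c*, which encodes the cell cycle inhibitor p57, stood at 86.4 and 166 CPM (0.520, rest 0.520). *Sparc*, a matrix glycoprotein, had a ratio of 0.531 (rest 0.828), *Lgals1*, galectin-1, 0.511 (rest 0.786), *Lmna*, lamin A/C, 0.551 (rest 0.721), *Actr10*, a dynactin subunit, 0.553 (rest 0.787), and the stefin genes *Stfa1* and *Stfa3* 0.451 and 0.533 (rest 0.636 and 0.476). By the difference from the rest in log2 ratio, *Fn1* (0.688, rest 1.21), *Penk*, proenkephalin (0.761, rest 1.37), *Tgfb2*, a TGF-beta ligand (0.784, rest 1.30), and *Sh3bp4* (0.866, rest 1.63) followed *Fst* on the low side. On the high side stood *Calm4*, *Srpk1*, a kinase of splicing factors (1.86, rest 1.18), the small heat shock protein gene *Hspb1* (1.33, rest 0.798), *Shmt2* (1.38, rest 0.953), *Hspb11* (1.49, rest 1.03) and *Uchl5* (1.32, rest 0.782).

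Of the hedgehog pathway, the ligand *Shh* stood at 299.5 CPM in gated cKO cells and 268 CPM in gated Ctrl cells, a level the rule had chosen. *Scube1*, a secreted SCUBE family protein, had 37 and 23 UMIs, or 31.0 and 16.7 CPM against 2.52 and 2.85 CPM in the rest. Of 11 receptor and response genes 4 were measured, and none was past 1.5-fold between cKO and Ctrl, with a median log2 ratio of 0.03 (rest 0.10). *Ptch1*, the SHH receptor and itself a target of the pathway, stood at 157 and 151 CPM (ratio 1.04, interval 0.849 to 1.27) and *Gli1* at 40.3 and 37.7 CPM (1.07, 0.706 to 1.61). Both were higher in gated cells than in the rest in both libraries, by 1.59 to 2.08 times, but Sox9-Lhx2 cells held them at least as often. After thinning, *Ptch1* was found in 48.2% and 47.7% of gated cKO and Ctrl cells and in 58.6% and 59.5% of Sox9-Lhx2 cells. For *Gli1* the shares were 20.5% and 15.4% against 21.5% and 23.7%. *Gas1*, a co-receptor for SHH, was lower, at 90.6 CPM in each library against 251 and 268 CPM in the rest. *Hhip*, another target gene, had 1 and 0 UMIs.

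The WNT pathway was present at the level of ligands, receptors and inhibitors alike. Of 14 genes for ligands and their secretion 6 were measured, and of 19 receptor genes 6, and in neither list was a gene past 1.5-fold between cKO and Ctrl (median log2 ratios -0.06 and 0.31, against -0.04 and 0.09 in the rest). *Wnt6* stood at 239 and 241 CPM and *Wnt3* at 73.8 and 58.7 CPM. *Lgr6*, an R-spondin receptor, stood at 80.5 and 55.8 CPM (ratio 1.44, 1.06 to 1.97), against 33.8 and 29.1 CPM in the rest. None of 4 measured genes for β-catenin and the TCF and LEF factors was either (median log2 ratio -0.25, rest 0.08). *Ctnnb1*, β-catenin, stood at 853 CPM in cKO and 951 CPM in Ctrl (0.897, 0.826 to 0.974), against 466 and 455 CPM in the rest. *Lef1*, the DNA-binding partner of β-catenin, stood at 136 and 178 CPM (0.765, 0.623 to 0.937), and the rest had a like ratio of 0.765.

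Among 21 genes for WNT feedback and inhibition 6 were measured, and 1 of them, *Wif1*, was past 1.5-fold, at a ratio of 0.523 (0.374 to 0.722) against 0.700 in the rest. It was found in 26 of 122 cKO and 42 of 137 Ctrl gated cells. In cells without any UMI of *Mki67* and *Top2a* its ratio was 0.812. *Kremen2*, a DKK receptor, stood at 269 and 257 CPM and *Nkd1*, a feedback inhibitor, at 51.2 and 39.9 CPM, above the 151 and 145 CPM and the 5.25 and 3.81 CPM of the rest. *Axin2*, a widely used target gene of the pathway, had 31 and 34 UMIs, or 26.0 and 24.7 CPM. *Sp5*, another target, had 55 and 27 UMIs, fewer than the 100 set for a measured gene, at a ratio of 2.36 (1.46 to 3.89) and 2.17 in the rest.

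Of 14 genes around EDAR and NF-κB 6 were measured, none past 1.5-fold between cKO and Ctrl (median log2 ratio -0.14, rest -0.14). In both libraries 4 of the 6 were at least 1.5 times higher than the rest, against 4.79% of all measured genes. *Edar*, the ectodysplasin receptor, stood at 68.0 and 87.7 CPM against 20.2 and 20.6 CPM in the rest, *Tnfrsf19* (TROY), a related receptor, at 180 and 181 CPM against 108 CPM in the rest of each library, *Nfkbia*, the NF-κB inhibitor and target, at 491 and 450.3 CPM against 180.1 and 216 CPM, and *Relb* at 39.4 and 47.9 CPM against 17.2 and 18.1 CPM. None of the 6 was 1.5-fold higher than in placode-gene cells in both libraries (median log2 ratio over them -0.16 in cKO and -0.02 in Ctrl), and placode-gene cells with *Shh* held 90.2 and 113 CPM of *Edar*. *Ltb*, lymphotoxin β, a target of EDAR signalling, had 58 UMIs in 24 cKO cells and 19 UMIs in 12 Ctrl cells, also too few to be measured, at a ratio of 3.53 (2.07 to 6.28) and 2.22 in the rest.

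Of 23 BMP genes 10 were measured, with *Fst* alone past 1.5-fold (median log2 ratio 0.05, rest 0.12). The ligand *Bmp2* stood at 85.6 and 91.4 CPM (0.937, 0.714 to 1.23), and *Bmp7* at 209.8 and 255 CPM (0.824, 0.698 to 0.972). *Bmp4* had 24 and 41 UMIs. Of 18 NOTCH genes 3 were measured (median log2 ratio 0.30, rest 0.03), and *Nrarp*, a feedback inhibitor and target of NOTCH, was past 1.5-fold at 1.70 (1.20 to 2.45), against 0.924 in the rest, with 81 UMIs in 50 cKO cells and 55 UMIs in 44 Ctrl cells. Of 17 FGF, EGF and PDGF genes 6 were measured (median log2 ratio -0.11, rest 0.11), and *Pdgfc* was past 1.5-fold at 0.593 (0.395 to 0.879). *Pdgfa*, a ligand that dermal cells of the follicle receive, was below that limit at 658 and 870.2 CPM (0.756, 0.690 to 0.828, rest 0.925).

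Of 26 follicle transcription factors 10 were measured and 5 of these, *Lhx2*, *Sox21*, *Msx2*, *Trps1* and *Cux1*, were at least 1.5 times higher in gated cells than in the rest in both libraries. Over all measured genes that share was 4.79%. Against Sox9-Lhx2 cells 4 of the 10 were higher by this measure and 2 lower. Between cKO and Ctrl the list had a median log2 ratio of -0.07 (rest 0.05), and *Msx2*, a homeobox gene of the hair matrix, alone was past 1.5-fold. It had 93 UMIs in 48 cKO cells and 47 UMIs in 32 Ctrl cells, or 78.0 and 34.1 CPM, a ratio of 2.29 (1.60 to 3.32) against 1.63 in the rest. In cells without *Mki67* and *Top2a* the ratio was 1.45. *Lhx2* had a ratio of 0.949 (0.825 to 1.09), and 0.785 (0.681 to 0.904) in the cells with less *Krt14*. Of the 18 inner root sheath and hair shaft genes in the files only *Msx2* was measured. None of 7 measured epidermal transcription factors was past 1.5-fold (median log2 ratio 0.26, rest 0.11), nor either of 2 measured TGF-beta genes.

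Keratins were lower in cKO. Of 4 measured genes, *Krt5* (0.644), *Krt14* (0.636) and *Krt15* (0.579) were past 1.5-fold, against ratios of 0.664, 0.689 and 0.571 in the rest, and *Krt17* was at 0.806 (rest 0.884). Over all measured genes 3.25% were past 1.5-fold on the low side. *Krt14* stood at 2887 CPM in gated cKO cells and 4538 CPM in gated Ctrl cells. Fewer of the gated cells were *Krt14*-high in cKO (19 of 122) than in Ctrl (44 of 137), and in the cells with less than 50 *Krt14* UMIs per 10000, 103 and 93 cells, the ratios of *Krt5*, *Krt14* and *Krt15* were 0.822, 0.844 and 0.751. That limit uses *Krt14* itself. *Krt79* had 67 and 21 UMIs, but 1 cKO cell held 58 of the 67, and without the top cell of each library its ratio was 0.875. None of 11 measured matrix adhesion genes and none of 13 cell-cell adhesion genes was past 1.5-fold (median log2 ratios -0.11 and -0.14, rest 0.06 and -0.03). *Cdh3*, P-cadherin, was higher in gated cells than in the rest (111 and 125 CPM against 69.0 and 69.3 CPM), and *Cdh1*, E-cadherin, was lower (32.7 and 43.5 CPM against 85.8 and 68.0 CPM).

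The cell cycle lists differed in where their members lay. Of 24 measured genes of G2 and M phase 6 were past 1.5-fold on the low side in cKO and none on the high side. Over all measured genes these shares were 3.25% and 4.97%. Of the 24 genes, 22 had a log2 ratio below 0, as had 1768 of all 3318 measured genes. Their median was -0.31, against 0.07 in the rest and -0.02 over all measured genes. The 6 were *Plk1* (0.491), a mitotic kinase, *Kif2c* (0.483), *Kif20a* (0.595), both kinesins, *Nusap1* (0.516) and *Hmmr* (0.578), spindle-associated proteins, and *Cdc20* (0.628), an activator of the anaphase-promoting complex. *Top2a* (0.699) and *Ccnb1* (0.677) were lower without passing that limit, while *Mki67* was at 0.964 and *Birc5* at 1.26. Of 25 measured S phase genes *Fen1*, a nuclease of DNA replication, was past 1.5-fold at 1.75 (rest 1.501), and the list had a median log2 ratio of 0.01 against -0.21 in the rest. Of 6 measured regulators of G1 only *Cdkn1c* was past 1.5-fold (median log2 ratio -0.32, rest -0.36).

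**Figure D5:**
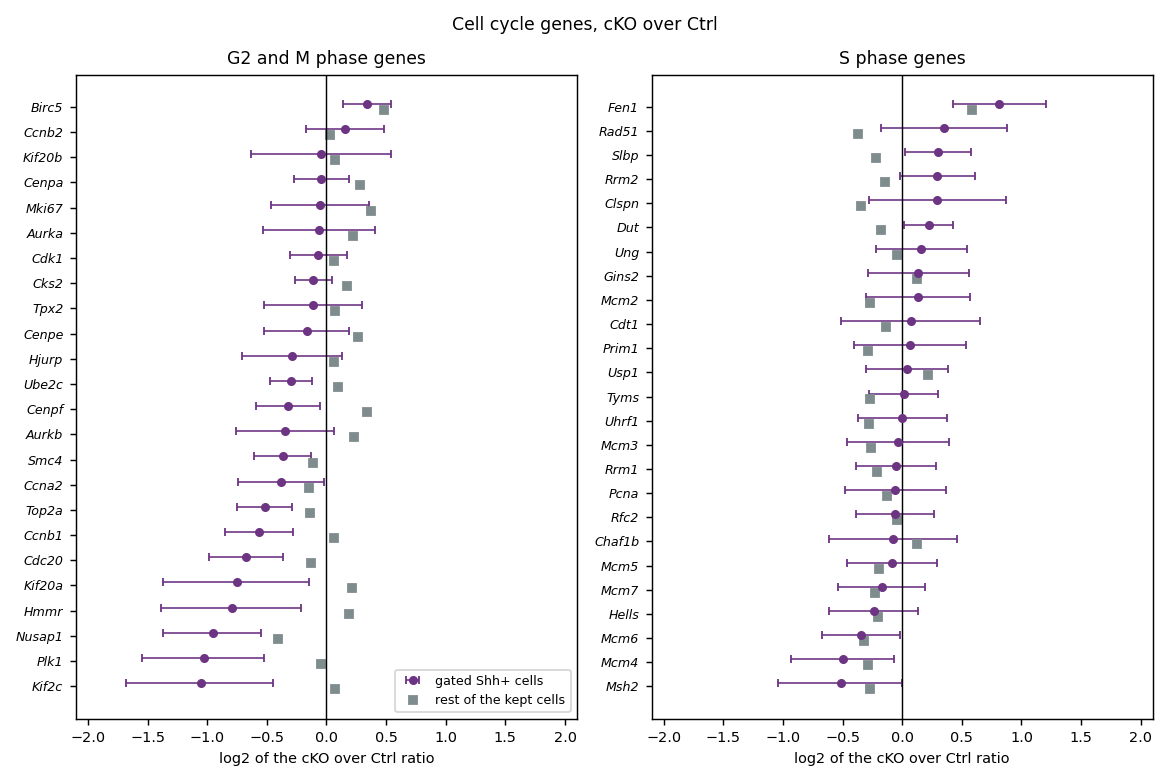
Log2 of the cKO over Ctrl ratio for 24 measured genes of G2 and M phase (left) and 25 of S phase (right) in gated Shh+ cells (purple circles, above) and in the rest of the kept cells (grey squares, below), with exact conditional 95% intervals for the gated cells. On the left 22 of 24 gated values lay below 0 with a median of -0.31, and on the right the median was 0.01.

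Before thinning, the 6 genes past the fold were found in a smaller share of the gated cells in cKO than in Ctrl. *Plk1* was in 27 of 122 cKO against 48 of 137 Ctrl cells, *Kif2c* in 23 against 39 and *Kif20a* in 27 against 38. *Nusap1* was in 36 against 48, *Hmmr* in 26 against 36 and *Cdc20* in 45 against 55. The 6 were picked by their lower sums in the same cells, so these shares are not separate evidence. Shares were compared after thinning for 3 other genes. After thinning, *Mki67* was found in 29.5% of cKO cells (21.2 to 38.8%) and 30.8% of Ctrl cells (23.0 to 39.5%), against 39.3% and 37.2% before, *Top2a* in 50.9% and 53.8%, against 53.3% and 59.1%, and *Cdk1* in 54.5% and 48.5%, against 59.8% and 54.0%. Merkel cells, here kept cells with 2 or more of *Atoh1*, *Krt20*, *Isl1* and *Sox2*, are held to have left the cycle. Thinning dropped 9 of 25 cKO and 13 of 34 Ctrl cells of this class, whose unthinned median depths were 6020 and 6091 UMIs. Those left held *Mki67* in 1 of 16 cKO and 2 of 21 Ctrl cells (6.25% and 9.52%). *Top2a* was in 1 of 16 and 9 of 21 (6.25% and 42.9%, Ctrl interval 21.8 to 66.0%) and *Cdk1* in 2 of 16 and 5 of 21 (12.5% and 23.8%). The Ctrl share of *Top2a* was thus not clear of that class, and whether the class was free of cycling cells was not tested. A difference between cKO and Ctrl in the share of cells with *Mki67* was not detectable at this depth. *Hmmr* and *Kif20a* did not keep their direction in the gated cells without *Mki67* and *Top2a* UMIs, at 2.27 and 1.14, nor *Cdc20* in those with at least 2 *Shh* UMIs, at 1.01.

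Of the m6A machinery 2 of 9 writer genes were measured, *Wtap* (0.955) and *Zc3h13* (1.09). *Rbm15*, an adaptor of the writer complex, had 50 and 11 UMIs, a ratio of 5.26 (2.70 to 11.2) against 3.56 in the rest. Of 8 measured reader and eraser genes *Ythdc1*, the nuclear m6A reader, was past 1.5-fold, at 189 and 110.2 CPM (1.71, 1.39 to 2.12, rest 1.47). None of 16 measured genes of ribosome rescue and translation initiation (median log2 ratio -0.12, rest -0.07) and none of 4 of the MYC family (0.39, rest 0.10) was. Of 15 immediate early and heat shock genes *Hspa1a* was higher (62.9 and 27.6 CPM, 2.28, rest 1.71) and *Dusp1* lower (52.0 and 80.5 CPM, 0.646, 0.466 to 0.890, rest 1.14). Of 9 measured YAP target and actin genes *Cyr61* (1.71, rest 1.47) and *Tpm1* (1.60, rest 0.996) were past 1.5-fold. *Cyr61* was at 1.26 in the cells with less *Krt14*.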

How the data were processed

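The authors deposited UMI counts for each gene in each barcode. Per the submitters' notes these came from Cell Ranger 2.0 with the mm10 build, and the annotation release is not given in the sources used here. Each matrix lists 737280 barcodes and 27998 genes before any filter on cells, and no normalization had been applied. Values were computed with Python 3.11.15, pandas 2.3.3, scipy 1.17.1 and numpy 2.4.6, and plotted with matplotlib 3.10.9. Scrublet in scanpy 1.11.5 marked 3 cKO cells (0.0839%) and 6 Ctrl cells (0.135%), too few for a working caller, so doublets were kept, and an alternative dropped the top 4% of each library by doublet score (7 gated cells in each library).

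For every class in each library the UMIs of a gene were added up and divided by the class total. Sums carry exact Poisson intervals, shares exact binomial intervals and ratios exact conditional binomial intervals, all at the 95% level. Intervals of sums and ratios were tested on simulated sums drawn from the Poisson model that they assume. That simulation left out the clumping of UMIs within cells, so it does not show how the intervals behave under it. Genes with at least 100 UMIs over both sets of gated cells were measured, and a ratio of at least 1.5 in either direction counted as past the fold. Named by rule were the genes of the gate, members of the lists, and genes with at least 200 UMIs, leaving out *Xist* and Y-linked genes. The last were the 12 highest and 12 lowest cKO over Ctrl ratios, the 6 highest and 6 lowest differences of their log2 from the rest, the 15 highest and 8 lowest ratios over the rest, and 8 of each over the placode-gene and Sox9-Lhx2 cells, with ratios over other cells ranked by the less extreme library. Which list members with fewer than 100 UMIs to name was chosen after their values had been seen. A gene that the rule names is not reported here. Thinning drew 5500 UMIs from each cell. Gene positions came from GENCODE vM21, which gave one for 27645 genes.

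The rule for the cells and the gene lists were chosen with earlier results of these data known. Alternatives changed the limits of the rule, the gene and UMI minimums, the scaling (TMM or median of ratios), the weight of each cell, the free RNA subtracted, the doublets and the depth. Chosen after seeing the data were the gated cells with less than 50 *Krt14* UMIs per 10000 and the ratios without the cell with the most UMIs.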

Additional observations from a re-analysis of the deposited data

Results flagged for a closer look

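In 5 genes the cKO over Ctrl ratio was past 1.5-fold in gated Shh+ cells while the rest of the kept cells went the other way, with both counting intervals clear of 1. *Fst* was at 0.416 in gated cells and 1.31 in the rest, which includes placode-gene cells at 0.826 (0.693 to 0.984), *Dusp1* at 0.646 and 1.14, *Hmmr* at 0.578 and 1.14, *Kif20a* at 0.595 and 1.16, and *Nrarp* at 1.70 and 0.924. The difference between gated cells and the rest was not tested, since each condition has 1 library. When the fold was not asked for, 18 of the genes named or listed had opposite directions by this measure. Only genes named or listed were searched, and some were named because their ratio differed most from the rest. The share over all measured genes was not computed, so neither count can be called unusual. *Fst* was past 1.5-fold on the low side in 16 of 17 alternatives, *Dusp1* in 14, *Hmmr* in 12 and *Kif20a* in 12, and *Nrarp* on the high side in 15. *Hmmr* and *Kif20a* changed direction in 1 alternative each, reaching 2.27 and 1.14. *Hmmr* and *Kif20a* rested on 38 and 36 UMIs in cKO and 76 and 70 UMIs in Ctrl.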

How the results depend on the processing

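No paired analysis was possible because each condition has 1 library, and for the same reason no replicate could be left out. The share of gated cells was 3.41% in cKO and 3.08% in Ctrl. It was 1.87% and 1.51% with at least 2 *Shh* UMIs, 7.80% and 5.91% without the *Dkk4* and *Fgf20* limit, and 2.01% and 1.93% where a second marker gene was asked for. Without the *Sox9* limit it was 4.14% in cKO, and with *Krt14* under 50 per 10000, added after seeing the data, 2.09% in Ctrl. The counts of genes past 1.5-fold, 165 higher and 108 lower in cKO, depended on depth and on the rule. They were 88 and 48 with at least 2 *Shh* UMIs, 94 and 69 with a second marker gene, 57 and 47 in cells without *Mki67* and *Top2a* UMIs, and 83 and 63 in cells thinned after the gate. With a minimum of 20 UMIs they were 785 and 722, with 1 UMI in each library 1749 and 1673, and with 400 UMIs 21 and 10. The higher count was 285 without the *Dkk4* and *Fgf20* limit and 109 with *Krt14* under 50. These settings change the number of UMIs summed, and the cause of each difference was not tested. TMM gave 183 and 96 and the median of ratios 157 and 115, and they moved log2 ratios by 0.02 and -0.01.

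Of 1087 ratios of named genes between cKO and Ctrl under the alternatives, 993 stayed within the main interval, 87 left it and 7 changed direction. The 7 were *Cdc20* at 1.01 with at least 2 *Shh* UMIs, *Kif20a* at 1.14 and *Hmmr* at 2.27 without *Mki67* and *Top2a* UMIs, and *Krt79* at 0.505 with at least 2 *Shh* UMIs, 0.404 with 0 *Sox9* UMIs, 0.994 without *Mki67* and *Top2a* UMIs and 0.875 without the top cells. Of 64 ratios of marker genes over the rest, 49 stayed within the main interval and 15 left it.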
